A study of Mus musculus with 9 samples.

Results

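The comparison described here set bone marrow-derived dendritic cells (BMDCs) exposed to tumor-derived exosomes (TDEs) against BMDCs exposed to exosomes of NIH 3T3, an untransformed line of mouse fibroblasts (normal exosomes, NEs). It used 6 of the 9 RNA sequencing libraries of the study, 3 TDE and 3 NE libraries. The 3 libraries without exosomes did not enter the comparison. All cells came from wildtype C57BL/6 bone marrow grown in GM-CSF at 20 ng/ml, for 6 days by the labels, and both groups were exposed to exosomes for 24 h. The labels do not name the tumor cells, while the methods give the mouse lines TC-1 or MC38, both of epithelial origin, as the source of exosomes where no line is named. Neither the labels nor the methods say whether the 3 libraries of a group came from separate mice or cultures, so p-values measure the spread between these libraries, which may be technical. Members were chosen by reads alone: of 57238 entries in the table, 14483 had enough reads in the 6 libraries to be tested, and the other 42755 were not tested. The comparison asks how the RNA of a dendritic cell differs when the exosomes come from a tumor rather than from fibroblasts, with exosome exposure common to both arms.

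Exosomes are small membrane vesicles that carry proteins, lipids and RNA from the cell that sheds them, and phagocytic cells such as dendritic cells (DCs) engulf them readily. Cultures of bone marrow in GM-CSF hold DC-like and macrophage-like cells together with immature myeloid cells and granulocytes. Activated myeloid cells can raise glycolysis and genes under the hypoxia-inducible factor HIF-1 even where oxygen is plentiful, and sterol synthesis is set by the transcription factor SREBP-2, which is switched off when the cell has enough cholesterol. The RNA measured in a treated culture could also include RNA carried in by the exosomes, and the 2 sources cannot be told apart.

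The 6 libraries held 17469782 to 19543645 estimated reads on genes. Levels are given in CPM, a gene's reads scaled to the size of the library, after TMM normalization over the 6 libraries. The smallest level that this depth can show, 3 reads, was between 0.154 and 0.172 CPM, a limit that covers counting error only. Reads of mitochondrial genes made up 2.52% to 2.92% of each library. NE replicate 3 stood apart from the other NE libraries. Its correlation of log2 CPM with NE replicates 1 and 2 was 0.979 across genes, against 0.990 between those libraries, and its share of ribosomal protein reads was 3.60% against 2.51% to 2.68% in the other 5 libraries. Its departure followed gene length. Across 10413 genes at 5 CPM or more, the ratio of NE replicate 3 to the other NE libraries had a Spearman correlation of -0.68 with length, with a median log2 ratio of 0.33 in the 25% of genes with the shortest models and -0.29 in the longest 25%. The ratio of NE replicate 1 to NE replicate 2 had a correlation of 0.070 with length. For the comparison itself the correlation between length and log2 fold change was 0.052 with all 6 libraries and -0.077 without NE replicate 3. The part that RNA quality plays in this difference was not tested, and results that rest on NE replicate 3 are given with and without it.

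The cultures carried the RNA of DCs, with macrophage genes above it. The integrin Itgax (CD11c) stood at 182, 176 and 144 CPM in the NE libraries and 118, 111 and 118 CPM in the TDE libraries, and the DC transcription factor Zbtb46 at 19.8, 19.6 and 17.9 CPM in the NE libraries and 14.7, 16.6 and 14.1 CPM in the TDE libraries. The growth factor receptor Flt3 stood at 15.4, 14.9 and 14.4 CPM in the NE libraries and 14.1, 15.3 and 14.6 CPM in the TDE libraries. Of these DC markers, Itgax and Zbtb46 were lower in TDE-treated BMDCs (log2 fold changes -0.53 and -0.34) and Flt3 did not pass the test (-0.02, adjusted p = 0.876). The call of Zbtb46 was lost in 4 of 6 fits that left out 1 library (adjusted p up to 0.1002). Of the 14 macrophage markers 8 were lower and 2 higher. Adgre1, which encodes the macrophage surface protein F4/80, stood at 482, 498 and 418 CPM in the NE libraries and 2317, 2182 and 2373 CPM in the TDE libraries. Adgre1 was 1 of the 2 that were higher, and no NE library reached its level in any TDE library. In bulk RNA such as this, fewer cells of a type and less RNA per cell cannot be told apart.

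A large part of the transcriptome differed. Among 14483 genes, 6068 (41.9%) passed an adjusted p of 0.05 in edgeR's quasi-likelihood test with Benjamini-Hochberg adjustment, of which 2986 (20.6%) were higher and 3082 (21.3%) lower in TDE-treated BMDCs. These shares are the background against which the gene lists below are read. The changes were mostly modest in size. The median absolute log2 fold change of the called genes was 0.68, 875 of the higher and 996 of the lower genes differed at least 2-fold, and 106 and 75 at least 8-fold. In 6044 of the 6068 called genes, and in 8027 (55.4%) of all tested genes, the 3 TDE libraries did not overlap the 3 NE libraries. The first principal component of the 6 libraries held 72.2% of their variance and separated the groups, and the second held 13.1% and separated NE replicate 3. Without NE replicate 3, 8417 genes were called, 4277 higher and 4140 lower, and 98.2% of the calls above were among them in the same direction. A fit that added the 3 libraries without exosomes called 2097 genes. Among those 3, replicate 1 stood apart in its share of ribosomal protein reads, 10.81% against 3.29% and 2.64%.

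**Figure D1:**
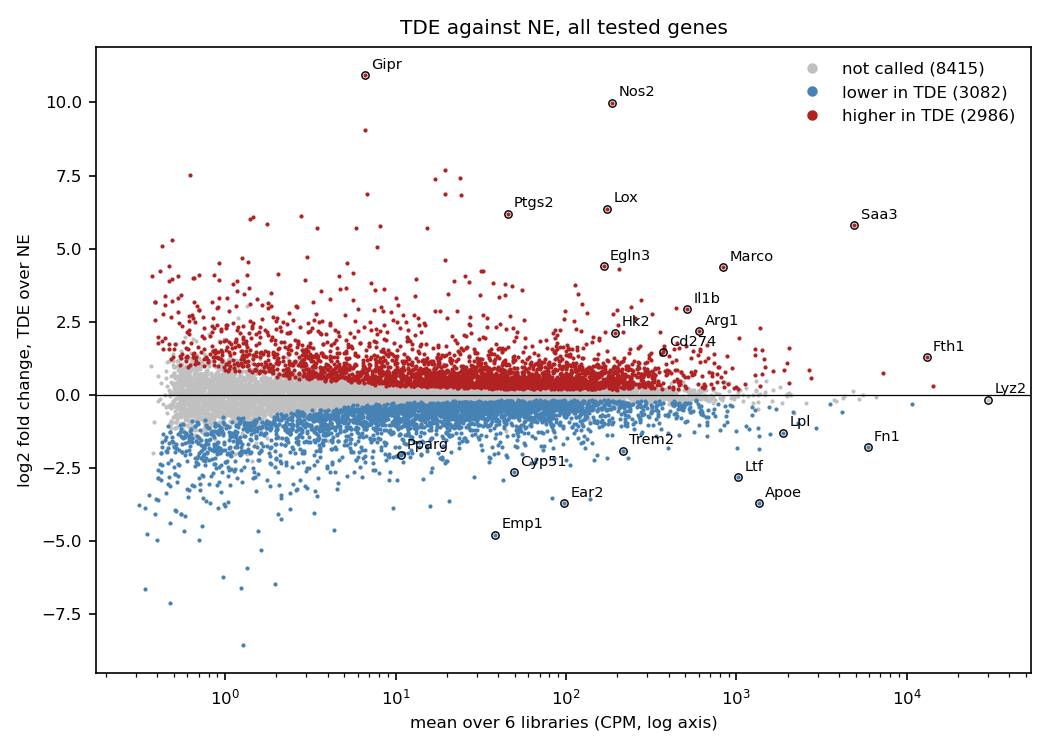
Log2 fold change of TDE over NE (vertical axis) against the mean level over the 6 libraries in CPM (log axis) for the 14483 tested genes, 1 point per gene. Red points are the 2986 genes higher and blue points the 3082 genes lower in TDE-treated BMDCs, and grey points were not called. Nos2 and Saa3 stand out as both abundant and far above 0, and Apoe and Ltf as abundant and far below it. The fitted value of Gipr, with 0 reads in the NE libraries, depends on a prior count.

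Genes that were almost silent with NEs and abundant with TDEs led the higher side. Nos2 (ENSMUSG00000020826; chromosome 11, 78920787 to 78960254 of GRCm38), the inducible nitric oxide synthase of activated macrophages, had 10, 1 and 9 reads in the NE libraries and 6600, 6321 and 7160 in the TDE libraries. In CPM these were 0.545, 0.0554 and 0.461 against 375, 356 and 384 (log2 fold change 9.99, SE 0.256, adjusted p = 2.19e-07). The 3 TDE libraries agreed closely, and no NE library came near them. Gipr, the receptor of the gut hormone GIP, had 0, 0 and 0 reads in the NE libraries and 242, 269 and 203 in the TDE libraries. With the NE libraries set to a floor of 3 reads each, the TDE level of Gipr was at least 82.3-fold higher. U90926, a myeloid transcript, had 1, 0 and 0 reads in the NE libraries against 222, 242 and 249, a ratio of 738 with an exact 95% counting interval of 132 to 29201. For both genes each TDE library was above each NE library, which gives p = 0.1 in a two-sided exact permutation test, the lowest value open to 3 libraries against 3.

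Lox, lysyl oxidase, which cross-links collagen, went from a mean of 4.16 to 344 CPM (log2 fold change 6.37, SE 0.140, adjusted p = 1.19e-07), and an exon of AC161119.1 lies on the opposite strand. Ptgs2, cyclooxygenase-2, the inducible enzyme of prostaglandin synthesis, stood at 1.36, 1.44 and 0.871 CPM in the NE libraries and 109, 64.9 and 95.8 CPM in the TDE libraries (log2 fold change 6.197, SE 0.268, adjusted p = 1.85e-06). The acute-phase protein Saa3 was among the most abundant RNAs of the TDE libraries, with 156, 128 and 234 CPM in the NE libraries and 9719.98, 9922 and 9359 CPM in the TDE libraries (log2 fold change 5.81, SE 0.238, adjusted p = 1.37e-06). Draxin, an axon guidance protein, stood at 0.163, 0.277 and 0.102 CPM with NEs and 39.1, 37.4 and 39.7 CPM with TDEs. Zfp811 (a zinc finger gene), Cd300e (an activating myeloid receptor) and Slc13a3 (a dicarboxylate transporter) behaved likewise, at most 0.499 CPM in any NE library and at least 32.2 CPM in every TDE library. Raver2, an RNA-binding protein gene that shares exon sequence with Jak1 on the opposite strand, had a log2 fold change of 6.88. Fth1, the ferritin heavy chain and one of the most abundant RNAs of these cells, stood at 6763, 6428 and 9659 CPM in the NE libraries and 18818, 18186 and 18528 CPM in the TDE libraries (log2 fold change 1.28, SE 0.152, adjusted p = 0.000335), while its light-chain partner Ftl1 did not pass the test (-0.06, adjusted p = 0.728).

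On the lower side, Emp1, an epithelial membrane protein, fell most among genes with a mean of 5 CPM or more, from a mean of 74.2 to 2.697 CPM (log2 fold change -4.78, SE 0.143, adjusted p = 3.97e-07). Apoe, the apolipoprotein that macrophages secrete, stood at 2237, 2228 and 3109 CPM in the NE libraries and 185, 201 and 189.5 CPM in the TDE libraries (log2 fold change -3.72, SE 0.147, adjusted p = 1.15e-06). The groups lay far apart, and NE replicate 3 was the highest library. The C-type lectin Mgl2 had a log2 fold change of -3.86, the kallikrein Klk1b11 -3.79, the ribonuclease Ear2 -3.696 and the small nuclear RNA Rn7sk -3.62. Rn7sk had 21.03, 28.98 and 63.996 CPM in the NE libraries, so that NE replicate 3 alone lay far above the others. Camp and Retnlg, products of granulocytes and their precursors, fell with log2 fold changes of -3.58 and -3.54. Alox15, a lipoxygenase, and Dcstamp, a receptor for myeloid cell fusion, had log2 fold changes of -2.93 and -2.93. Dcstamp was uniform within groups, at 80.2, 73.04 and 74.2 CPM in the NE libraries and 9.88, 9.92 and 10.03 CPM in the TDE libraries.

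**Figure D2:**
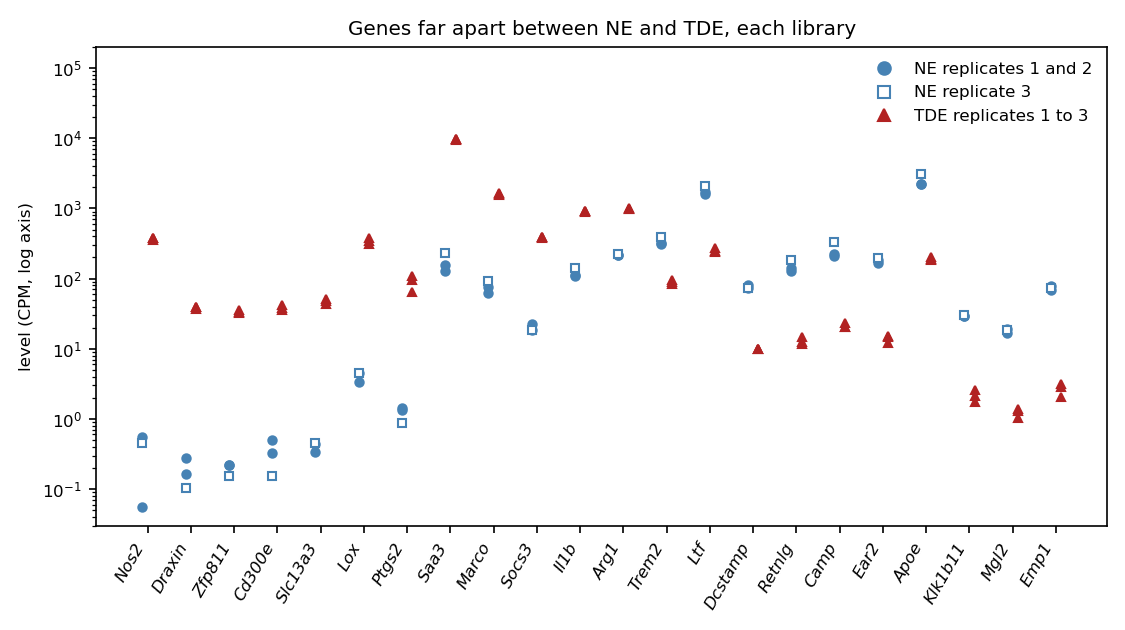
Level in CPM (log axis) of 22 genes, with every library shown as 1 point: circles for NE replicates 1 and 2, open squares for NE replicate 3, triangles for TDE. The groups do not overlap for any of the 22 genes, and NE replicate 3 lies on the side of the other NE libraries, above them for Apoe and Camp among others.

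Of all lists described here, the hypoxia-inducible genes had the highest share of members raised with TDEs. The list holds targets of HIF-1, which binds a core sequence ACGTG near the genes it controls, and also Epas1, a HIF subunit gene. Of 24 listed genes in the table, 23 were tested, 22 were higher and 1 was lower in TDE-treated BMDCs, against 20.6% and 21.3% of all tested genes. Their median log2 fold change was 1.95, against -0.015 over all tested genes. Car12 had too few reads to be tested. The same 22 and 1 were counted without NE replicate 3, and 16 and 1 when the untreated libraries were added to the fit.

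Egln3, a prolyl hydroxylase that marks HIF for destruction and is itself a HIF target, stood at 14.4, 15.7 and 15.4 CPM in the NE libraries and 305, 343 and 306 CPM in the TDE libraries (log2 fold change 4.39, SE 0.088, adjusted p = 1.19e-07). Ak4, a mitochondrial adenylate kinase, stood at 4.85, 5.04 and 4.82 CPM in the NE libraries and 71.2, 72.2 and 66.1 CPM in the TDE libraries (log2 fold change 3.83, SE 0.085, adjusted p = 1.19e-07). Hilpda, a lipid droplet protein induced by hypoxia, stood at 7.52, 7.98 and 9.99 CPM in the NE libraries and 103, 97.1 and 105 CPM in the TDE libraries (log2 fold change 3.58, SE 0.114, adjusted p = 4.97e-07). For each of these 3 genes the libraries of a group lay close together and the groups far apart. Further members that were higher, given with their log2 fold changes, were Bnip3 (mitophagy, 2.91), Ndrg1 (2.77), Ddit4 (an inhibitor of mTORC1, 2.69) and the angiogenic factor Vegfa (1.58). RNA of Hif1a, the regulated subunit of HIF-1, rose less, from a mean of 419 to 727 CPM (log2 fold change 0.80). The member that fell was Epas1, which encodes the related subunit HIF-2alpha, at 14.9, 16.6 and 12.3 CPM in the NE libraries and 3.63, 2.99 and 4.18 CPM in the TDE libraries (log2 fold change -2.01, SE 0.168, adjusted p = 5.35e-05).

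Genes of glycolysis were mostly higher as well. Of 26 genes for glucose uptake, glycolysis and lactate export, all tested, 20 were higher, 1 was lower and 5 did not pass, with a median log2 fold change of 1.04. The glucose transporter Slc2a1 (GLUT1) stood at 65.5, 64.3 and 64.9 CPM in the NE libraries and 354, 327 and 343 CPM in the TDE libraries (log2 fold change 2.39, SE 0.067, adjusted p = 2.78e-07). Hexokinase 2 (Hk2), which traps glucose in the cell, stood at 73.2, 75.8 and 68.9 CPM in the NE libraries and 328, 300.04 and 322 CPM in the TDE libraries (log2 fold change 2.13, SE 0.074, adjusted p = 7.01e-07). Neither gene overlapped between the groups, and both varied little within them. Steps further down the pathway were higher as well: Pfkfb3 (1.75), Pgk1 (1.56), Gapdh (1.08), Pkm (0.84), lactate dehydrogenase Ldha (1.31) and the lactate exporter Slc16a3 (1.38). The summed level of all 26 genes of the list went from between 7471 and 8354 CPM in the NE libraries to between 17047 and 17586 CPM in the TDE libraries. The exception was Slc2a6, a transporter of lysosomal membranes, at -0.36 (adjusted p = 0.00389).

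The HIF core is found in many of these promoters. RefSeq promoter sequences on GRCm38.p6 were matched by symbol for 19 of the 24 hypoxia genes and 25 of the 26 glycolysis genes. ACGTG occurred on either strand within 250 bases before a start site in 14 of those 19 hypoxia genes (73.7%) and 12 of those 25 glycolysis genes (48.0%). It occurred in 24.8% of 10135 matched tested genes and in 18.5% of all 27025 genes of the RefSeq table. A match is a description of the sequence and not a measured binding site. The hypoxia list was built around known HIF-1 targets, so a high share of the core could come from that choice alone. It is not a result on TDEs against NEs. The windows that follow show 120 bases of the plus or minus strand before a start site, 5′ to 3′, for Egln3, Ak4, Hilpda and Slc2a1. Each match is in capitals, and in Ak4 the palindrome holds 1 match on each strand. Within the 250 bases the window with most matches was taken, also where a gene has several starts (4 for Ak4, 2 for Hilpda). The last base lies at -110 from the start in Egln3 and at -95 in Ak4. These windows lie at chr12:54203984-54204103 (minus strand), chr4:101419489-101419608, chr6:29272506-29272625 and chr4:119108625-119108744 (plus strand).
Egln3: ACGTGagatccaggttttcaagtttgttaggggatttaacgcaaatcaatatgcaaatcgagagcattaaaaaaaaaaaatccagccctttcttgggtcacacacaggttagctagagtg
Ak4: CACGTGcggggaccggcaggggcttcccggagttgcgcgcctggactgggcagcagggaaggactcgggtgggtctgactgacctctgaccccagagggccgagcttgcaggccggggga
Hilpda: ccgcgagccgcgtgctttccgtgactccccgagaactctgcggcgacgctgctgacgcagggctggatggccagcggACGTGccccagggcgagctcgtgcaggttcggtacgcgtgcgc
Slc2a1: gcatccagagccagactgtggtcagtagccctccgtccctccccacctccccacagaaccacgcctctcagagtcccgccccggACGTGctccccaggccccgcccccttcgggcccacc

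Genes of sterol synthesis were lower. Of 27 genes for cholesterol synthesis and uptake, 26 were tested, 22 were lower, 2 higher and 2 did not pass, with a median log2 fold change of -1.003. The list's summed level went from between 1691 and 1735 CPM with NEs to between 774 and 809 CPM with TDEs. The lanosterol demethylase Cyp51 stood at 83.6, 81.6 and 91.5 CPM in the NE libraries and 13.1, 14.3 and 13.9 CPM in the TDE libraries (log2 fold change -2.64, SE 0.082, adjusted p = 4.71e-07), and Akap9 has exons on the other strand of the same stretch. Idi1, which makes the isoprenoid building block of the pathway, stood at 93.6, 94.8 and 123 CPM in the NE libraries and 22.4, 20.1 and 18.8 CPM in the TDE libraries (log2 fold change -2.34, SE 0.129, adjusted p = 6.66e-06). Both genes were well separated between the groups, with no overlap. Hmgcs1, an early enzyme of the pathway, had a log2 fold change of -1.45, and the squalene epoxidase Sqle -1.78. RNA of the regulator Srebf2, which encodes SREBP-2, fell by 0.97 on the log2 scale. The members that were higher were Insig2, which holds SREBP in the endoplasmic reticulum, at 0.57, and the mevalonate decarboxylase Mvd at 0.38. The counts were 22 lower and 2 higher without NE replicate 3 as well.

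SREBP works together with the factor NF-Y, which binds the CCAAT box. CCAAT occurred on either strand within 250 bases before a start site in 17 of the 19 matched sterol genes (89.5%), against 40.6% of the matched tested genes. Of the 15 matched members that were lower, 13 held it (86.7%), and so did the 2 members that were higher. With only 2 higher members, these counts cannot show whether the box goes with a direction. As with the hypoxia list, the high share could come from the choice of genes alone. It is not a result on TDEs against NEs. Windows of 120 bases, chosen in the same way, are shown for the pair of genes that fell most and for Hmgcs1. Each CCAAT or its complement ATTGG is in capitals, and the last base of the Hmgcs1 window lies at -118 from the start. These windows lie at chr5:4104698-4104817 (minus strand), chr13:8885486-8885605 and chr13:119690114-119690233 (plus strand) of GRCm38.p6.
Cyp51: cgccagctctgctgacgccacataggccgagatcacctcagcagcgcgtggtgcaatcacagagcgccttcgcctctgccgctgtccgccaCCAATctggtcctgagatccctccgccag
Idi1: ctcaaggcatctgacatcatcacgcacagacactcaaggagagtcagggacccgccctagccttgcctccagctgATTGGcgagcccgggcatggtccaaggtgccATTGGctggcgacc
Hmgcs1: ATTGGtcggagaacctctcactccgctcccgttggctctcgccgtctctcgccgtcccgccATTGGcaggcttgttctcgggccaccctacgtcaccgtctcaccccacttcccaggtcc

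**Figure D3:**
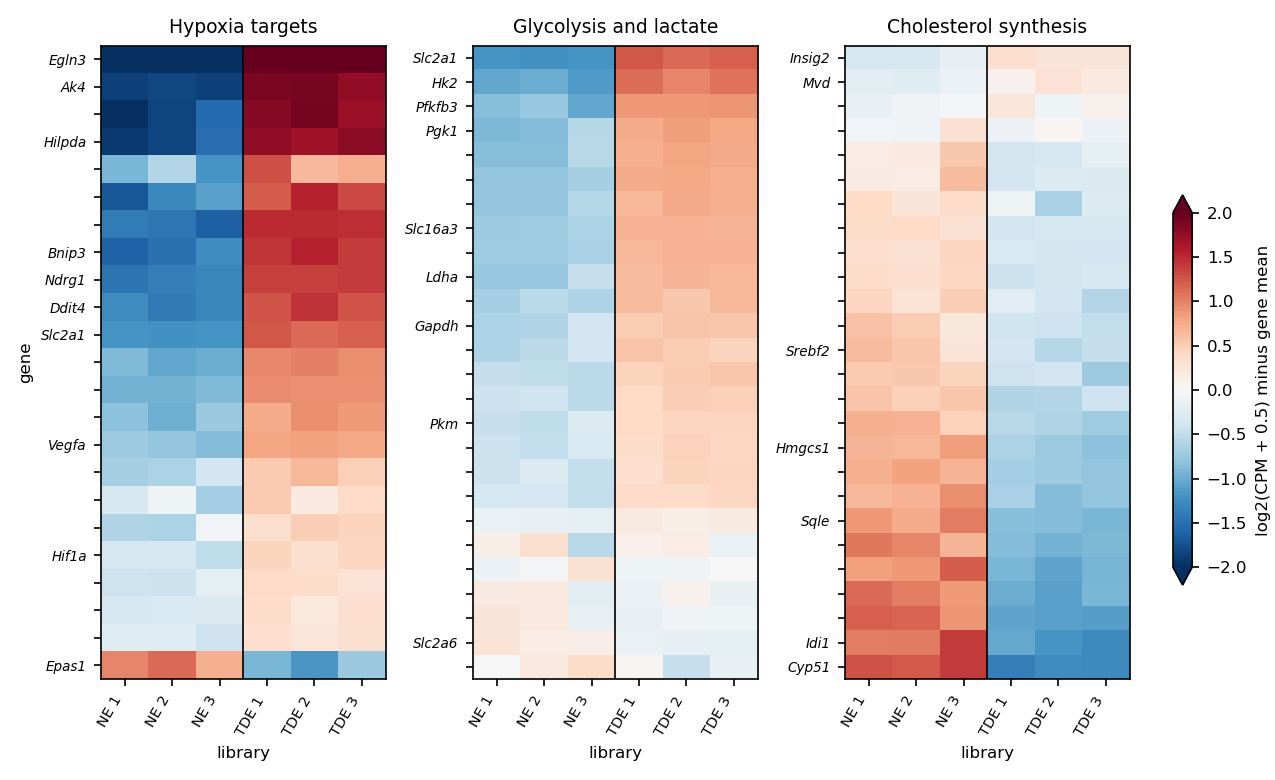
Heat maps of the tested members of 3 lists in each of the 6 libraries, coloured by log2(CPM + 0.5) minus the gene's mean over the libraries and sorted by log2 fold change, with labels on the rows of genes named in the text. With TDEs 22 of 23 hypoxia genes and 20 of 26 glycolysis genes were higher and 22 of 26 sterol genes lower, and the 3 libraries of a group look alike.

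Cytokine RNAs were mostly higher. Of 34 cytokines and growth factors in the table, 25 were tested, 14 were higher and 4 lower, with a median log2 fold change of 0.67; the other 9 had too few reads. Il1b, the main inflammatory product of the inflammasome, stood at 108, 111 and 139.8 CPM in the NE libraries and 908, 903 and 911 CPM in the TDE libraries (log2 fold change 2.92, SE 0.109, adjusted p = 8.96e-07). Il12a, a subunit of the T-cell-polarizing cytokine IL-12, stood at 0.109, 0.166 and 0.359 CPM in the NE libraries and 12.4, 9.97 and 12.3 CPM in the TDE libraries (log2 fold change 5.71, SE 0.282, adjusted p = 3.76e-06), and its partner subunit Il12b at 104, 107 and 109 CPM in the NE libraries and 196, 221 and 201 CPM in the TDE libraries (0.95). Il1b and Il12a did not overlap between the groups, yet Il12a remained a scarce RNA with TDEs. Il6 (2.21) and Tnf (1.13) were higher from low levels, from a mean of 2.56 to 11.9 CPM for Il6 and from a mean of 9.85 to 21.6 CPM for Tnf. The suppressive cytokine Il10 had 0, 2 and 3 reads with NEs and 42, 37 and 53 with TDEs, a ratio of 27.3 with an exact 95% counting interval of 11.4 to 85.6. Igf1 (-2.06) and Spp1, osteopontin (-2.18), were the members that fell most.

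Chemokines went in both directions. The neutrophil-attracting ligands of CXCR2, Cxcl1 (2.93), Cxcl2 (2.41), Cxcl3 (3.88) and Cxcl5 (4.52), were higher with TDEs, with log2 fold changes in parentheses here and in what follows. Cxcl3 stood at 2.07, 2.16 and 4.05 CPM in the NE libraries and 44.8, 37.3 and 41.03 CPM in the TDE libraries, and Cxcl2 at 12.97, 10.4 and 15.7 CPM in the NE libraries and 78.4, 59.4 and 69.5 CPM in the TDE libraries. Ccl6, abundant in myeloid cells, stood at 1894, 1843 and 2175 CPM in the NE libraries and 738, 748 and 717 CPM in the TDE libraries (-1.42), and Cxcl14 at 33.4, 33.1 and 33.8 CPM in the NE libraries and 6.304, 7.16 and 7.19 CPM in the TDE libraries (-2.28). Over the whole list 7 of 19 tested members were higher and 6 lower, and the summed level, of which the abundant Ccl6 is a large part, was lower with TDEs, between 2328 and 2379.6 CPM against 3997 to 4668 CPM. Another 7 chemokines were not tested. Among the receptors 5 of 15 were higher, among them Ccrl2 (2.21) and Cx3cr1 (1.15), and 7 lower, among them the lymph node homing receptor Ccr7 (-0.88) and Cxcr4 (-0.92).

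Cxcl1, Cxcl2 and Cxcl3 share a match to the site of the inflammatory factor NF-kB close to the start of transcription. GGANTTTCC, searched on both strands in 250 bases before a start site, occurred in 4 of 17 matched chemokines (23.5%), namely these 3 and Cxcl10, and in 1.37% of the matched tested genes. Cxcl10, named after its values were seen like Cxcl1 and Cxcl2, did not pass the test (-0.60, adjusted p = 0.146). The sequence occurred in 3 of 5 matched chemokines that were higher and 0 of 5 that were lower. Among matched cytokines and growth factors it occurred in 1 of 11 that were higher and 1 of 3 that were lower. As above, a match is a description of the sequence and not a measured binding site. The site is in capitals in the last 120 bases before each start, all on the plus strand, at chr5:90891125-90891244, chr5:90903779-90903898 and chr5:90785981-90786100.
Cxcl1: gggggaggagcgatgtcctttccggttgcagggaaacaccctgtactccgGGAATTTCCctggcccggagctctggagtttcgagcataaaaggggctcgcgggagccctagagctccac
Cxcl2: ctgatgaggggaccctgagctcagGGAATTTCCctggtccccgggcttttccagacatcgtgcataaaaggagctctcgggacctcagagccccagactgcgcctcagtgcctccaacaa
Cxcl3: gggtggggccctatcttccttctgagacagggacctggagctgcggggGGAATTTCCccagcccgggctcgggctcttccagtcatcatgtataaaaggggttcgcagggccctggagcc

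Feedback inhibitors of inflammatory signaling were among the genes raised. In the list of NF-kB subunits and feedback genes, 10 of 18 members were higher, 2 lower and 6 not called, with a median log2 fold change of 0.53. Among the ones that were higher were the atypical IkB gene Nfkbiz (2.86), the kinase-dead IRAK family member Irak3 (2.62), Nfkbia, which encodes IkB-alpha (1.25), and the deubiquitinase Tnfaip3 (1.06). Irak3 stood at 77.6, 70.9 and 64.8 CPM in the NE libraries and 437, 428 and 443 CPM in the TDE libraries, and its exons overlap Tmbim4 on the opposite strand. Of the 5 NF-kB subunits, Relb was lower (-0.21, adjusted p = 0.0304), while Nfkb1, Nfkb2, Rela and Rel did not pass. The call of Relb was lost in 5 of 6 fits that left out 1 library (adjusted p up to 0.138). Socs3, the brake on cytokine receptor signaling through STAT3, stood at 22.3, 18.7 and 18.2 CPM in the NE libraries and 394, 391 and 381 CPM in the TDE libraries (log2 fold change 4.301, SE 0.098, adjusted p = 1.27e-07). Its list held 9 higher, 5 lower and 4 other tested genes, with Dusp16 higher (2.57) and Socs6 lower (-1.03). AP-1 and early growth factors were divided, 9 higher and 7 lower of 22, with Ier3 at 2.19996 and Egr1 at -1.51. Among 32 innate sensors 13 were higher and 7 lower. The formyl peptide receptor Fpr2, which shares exon sequence with Fpr3, had a log2 fold change of 2.16, Tlr1 1.36, the fungal receptor Clec7a (dectin-1) -1.82 and the lipid sensor Trem2 -1.91.

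Several genes with which myeloid cells restrain T cells were higher. In the list of inhibitory and tolerance molecules, 17 of 35 tested genes were higher, 9 lower and 9 not called, with a median log2 fold change of 0.53; Nos2, Ptgs2 and Socs3 are members as well as members of other lists. Cd274, which encodes the checkpoint ligand PD-L1, stood at 203, 202 and 184 CPM in the NE libraries and 554, 517 and 554 CPM in the TDE libraries (log2 fold change 1.47, SE 0.072, adjusted p = 3.69e-06). Arg1, arginase, which depletes arginine, stood at 214, 218 and 223 CPM in the NE libraries and 971, 1019.5 and 968 CPM in the TDE libraries (log2 fold change 2.17, SE 0.065, adjusted p = 3.97e-07). The groups did not overlap for either gene. The PD-L2 gene Pdcd1lg2 (0.88), the receptor Pirb (0.97) and Vsir, which encodes VISTA (0.70), were higher by less. Havcr2, which encodes TIM-3, fell (-2.59), and so did the ectonucleotidase Entpd1, CD39 (-1.56). Sirpa (0.14, adjusted p = 0.156) and Tgfb1 (-0.15, adjusted p = 0.105) did not pass the test. Both passed it without NE replicate 3 (0.11 and -0.14, adjusted p = 0.0345 and 0.0141). Sirpa stood at 1309, 1209.9 and 1183 CPM in the NE libraries and 1374, 1305 and 1395 CPM in the TDE libraries.

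Genes of arginine use, nitric oxide and itaconate form a short list in which 9 of 15 were higher and 3 lower (median 0.65). Beside Nos2 and Arg1 it holds the arginine transporter Slc7a2, at 59.5, 60.1 and 38.6 CPM in the NE libraries and 519, 476 and 501 CPM in the TDE libraries (log2 fold change 3.24, SE 0.168, adjusted p = 4.77e-06), and Acod1, which makes itaconate, at 35.7, 30.4 and 32.6 CPM in the NE libraries and 196, 174 and 201 CPM in the TDE libraries (log2 fold change 2.53, SE 0.094, adjusted p = 8.94e-07). The NAD glycohydrolase Cd38 stood at 52.96, 51.5 and 57.3 CPM in the NE libraries and 436, 432 and 423 CPM in the TDE libraries (log2 fold change 2.996, SE 0.073, adjusted p = 1.61e-07). RNA of an arginine transporter and of the arginine-consuming enzymes encoded by Nos2 and Arg1 was therefore higher. The further arginase gene Arg2, named after its values were seen, was higher as well (0.85), and exons of Vti1b and Gm48780 overlap it on the opposite strand. The polyamine synthases Srm (-1.15) and Sms (-0.72) were lower. Of the genes for prostaglandins and leukotrienes, 4 of 18 were higher and 7 lower: Ptges, which acts after Ptgs2 to make prostaglandin E2, was higher (1.86), and the lipoxygenase Alox15 (-2.93) and Hpgds, a prostaglandin D2 synthase (-0.60), were lower. In the oxidative stress list 8 of 25 were higher and 6 lower, with heme oxygenase Hmox1 (1.66) and the superoxide dismutase Sod2 (1.66) among the higher genes and Gclc, an enzyme of glutathione synthesis (-1.12), among the lower ones. Its counts were 13 higher and 7 lower without NE replicate 3, and 5 higher and 5 lower without TDE replicate 1 or 3. Without NE replicate 2, 5 were higher.

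RNA of most genes for antigen presentation on MHC class II was lower. Of 15 genes, 10 were lower, 3 higher and 2 not called, with a median log2 fold change of -0.55. Cd74, the invariant chain, stood at 2030.2, 2083 and 2706 CPM in the NE libraries and 864, 919 and 890.01 CPM in the TDE libraries (log2 fold change -1.35, SE 0.116, adjusted p = 6.11e-05). H2-Ab1, which encodes an MHC class II chain, stood at 578, 597 and 760.01 CPM in the NE libraries and 416, 451 and 421 CPM in the TDE libraries (log2 fold change -0.59, SE 0.110, adjusted p = 0.00351), with H2-Aa (-0.75) and the class II regulator Ciita (-0.69) also lower. The highest values of Cd74 and H2-Ab1 came from NE replicate 3, and without it 11 members were lower, 3 were higher and the median was -0.41. Leaving out any other library left 1 member higher and 8 to 10 lower, and the fit to all 9 libraries called 1 higher and 3 lower. H2-Ob, part of the inhibitor of peptide loading, was higher (1.499). MHC class I genes were mostly not called (15 of 24, with 4 higher and 5 lower). The peptide transporter Tap1 was higher (0.89), and H2-K1 (0.17) and B2m (0.27) did not pass; without NE replicate 3, 12 class I genes were higher and 5 lower, among the former H2-K1 and B2m (0.29 and 0.40, adjusted p = 5.1e-06 and 2.04e-07). Without any 1 TDE library, 2 class I genes were lower.

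Of 21 costimulatory and maturation genes, 10 were lower and 5 higher. Cd86, the ligand of CD28 on T cells, stood at 112, 105 and 95.3 CPM in the NE libraries and 59.6, 60.5 and 62.5 CPM in the TDE libraries (log2 fold change -0.77, SE 0.079, adjusted p = 0.000152). Cd83 (-0.52) and Cd24a (-0.86) were lower, and Cd80 did not pass (-0.25, adjusted p = 0.0701). Tnfsf9, the 4-1BB ligand (2.55), and Cd40 (1.01) were higher, so the list did not move as a block. The counts were 5 higher and 5 lower without TDE replicate 1, and 5 higher and 3 lower in the fit to all 9 libraries. Cd80 was called without NE replicate 3 (-0.32, adjusted p = 0.00112). Interferon-stimulated genes were lower in 16 and higher in 3 of 34 members (median -0.44). The antiviral GTPase Mx1 stood at 206, 214 and 147 CPM in the NE libraries and 58.7, 67.5 and 59.6 CPM in the TDE libraries (log2 fold change -1.61, SE 0.144, adjusted p = 7.81e-05), Cmpk2 had a log2 fold change of -1.77, and Gbp2 was higher (0.70). Isg15 did not pass the test (-0.06), and its sign changed with the setting. When the untreated libraries were added to the fit, 6 interferon genes were called lower and 0 higher.

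**Figure D4:**
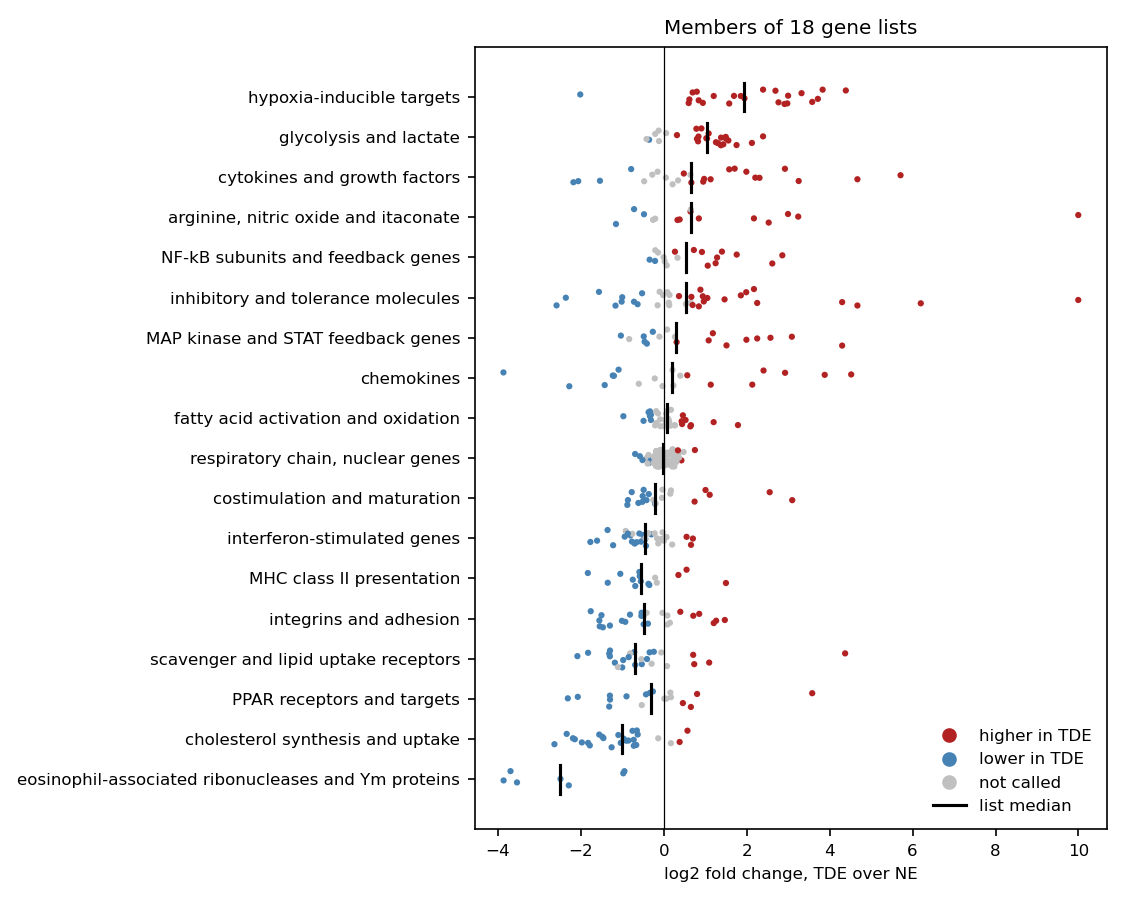
Log2 fold change of TDE over NE for the tested members of 18 gene lists, 1 point per gene, red where higher, blue where lower and grey where not called; black bars are list medians. The hypoxia list (median 1.95) and the eosinophil-associated list (median -2.49) lie at the ends, and the nuclear respiratory chain genes gather around 0.

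Lipid genes went in both directions. Uptake was represented by 25 tested scavenger and lipid uptake receptors, of which 15 were lower and 4 higher (median -0.69). The fatty acid translocase Cd36 stood at 592, 583 and 519.8 CPM in the NE libraries and 237, 219.6 and 224 CPM in the TDE libraries (log2 fold change -1.32, SE 0.076, adjusted p = 8.84e-06) and lipoprotein lipase Lpl at 2646, 2597 and 2801 CPM in the NE libraries and 1147, 1030.3 and 1091 CPM in the TDE libraries (log2 fold change -1.299, SE 0.074, adjusted p = 7.87e-06). Neither gene overlapped between the groups. The scavenger receptor Marco went up from 76.9, 62.6 and 91.5 CPM with NEs to 1572, 1584 and 1634 CPM with TDEs (log2 fold change 4.37, SE 0.143, adjusted p = 5.47e-07), with the HDL receptor Scarb1 also higher (0.73). Genes for triglyceride synthesis and lipid droplets were higher in 11 and lower in 6 of 28 tested members. Dgat2, which makes triglyceride from diacylglycerol, stood at 19.7, 20.8 and 19.9 CPM in the NE libraries and 57.9, 64.2 and 56.96 CPM in the TDE libraries (log2 fold change 1.57, SE 0.079, adjusted p = 4.09e-06). The lipid droplet lipase Pnpla3, which overlaps Gm49513 on the same strand, went from a mean of 0.444 to 15.1 CPM (5.06), while the droplet coat gene Plin2 (-0.90) and the monoglyceride lipase Mgll (-1.59) were lower. Of 18 genes for fatty acid synthesis and desaturation 7 were lower, among them Fasn (-1.26) and Fads2 (-1.31), and 3 higher, among them the desaturase Scd2 (1.16). Without NE replicate 3 the counts were 7 higher and 8 lower.

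Fatty acid oxidation showed little common movement: 8 of 35 tested genes were higher, 7 lower and 20 not called, with a median log2 fold change of 0.07. The counts were 13 higher and 8 lower without NE replicate 3, and 7 higher and 2 lower without TDE replicate 1. Without TDE replicate 2 or 3, 3 and 2 were lower. The acyl-CoA synthetases that activate fatty acids differed from each other. Acsl5 stood at 101, 98.7 and 116 CPM in the NE libraries and 239.8, 249 and 237 CPM in the TDE libraries (log2 fold change 1.203, SE 0.081, adjusted p = 1.72e-05), and Acsl1 had a log2 fold change of 0.66, whereas Acsl3 was lower (-0.97) and Acsl4 did not pass (0.07, adjusted p = 0.577). Acsl6 was listed at 0 in all 6 libraries. Exons of Acsl1, Acsl3 and Acsl5 overlap other genes. Of the carnitine palmitoyltransferases, which carry fatty acids into mitochondria, Cpt1c was higher at a low level (from a mean of 1.77 to 6.13 CPM, 1.79) and Cpt1b did not pass (0.13). Cpt1a and Cpt2 had at most 3 reads in any of the 6 libraries after rounding, so no fold is given. Whether reads of these genes were assigned to other entries of the table was not tested, so the low values do not show that the genes were silent.

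The nuclear receptors of the PPAR family answered differently from one another. Pparg, which drives lipid storage genes, stood at 16.7, 16.3 and 18.9 CPM in the NE libraries and 4.43, 3.49 and 4.398 CPM in the TDE libraries (log2 fold change -2.07, SE 0.129, adjusted p = 1.29e-05), and Ppard at 36.2, 33.7 and 32.2 CPM in the NE libraries and 60.9, 57.6 and 59.7 CPM in the TDE libraries (log2 fold change 0.80, SE 0.074, adjusted p = 8.84e-05). Pparg was lower and Ppard higher in every TDE library than in any NE library. Ppara had 0, 0 and 1 reads with NEs and 5, 7 and 9 with TDEs after rounding, too few for the test across all genes. Its ratio was 21.7 with an exact 95% counting interval of 3.497 to 899, each TDE library was above each NE library (p = 0.1, the same exact permutation test), and its deposited values were fractional in the TDE libraries, so that this interval holds only if they are read counts. Whether reads of Ppara were assigned to other entries was not tested either. Ppargc1a had 2, 2 and 2 against 4, 2 and 6 reads, a ratio of 2.07 with an interval of 0.719 to 6.72 that includes 1. Among PPAR receptors and targets 18 of 28 were tested, 9 lower and 4 higher (median -0.30), with Angptl4 (-2.31) and Fabp4 (-1.296) on the lower side. Of the tested members Hilpda had the highest log2 fold change, and it is also in the hypoxia list. Of the LXR targets 5 were lower, Apoe most, and 3 higher of 13, while the cholesterol exporter Abca1 did not pass (0.32, adjusted p = 0.17). Without NE replicate 3 the LXR counts were 5 higher and 7 lower, and Abca1 was called (0.13, adjusted p = 0.0361).

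Nuclear genes of mitochondrial energy production were mostly not called with all libraries in the fit. Of 71 nuclear genes of the respiratory chain, 3 were higher, 5 lower and 63 not called, with a median log2 fold change of -0.02. This list rests on NE replicate 3: its summed level was 4163, 4287 and 5772 CPM in the NE libraries and 4751, 4881 and 4712 CPM in the TDE libraries. Without NE replicate 3, 40 members were higher and 7 lower, with a median of 0.22. With the length trend of each library removed, 21 were higher and 8 lower. These are short genes, and NE replicate 3 was high in short genes as a whole. The tricarboxylic acid cycle list went from 4 higher and 2 lower of 22 with 6 libraries to 10 and 4 without NE replicate 3. Its member Idh3a was lower (-0.72) and citrate synthase Cs higher (0.32). Of 12 tested genes encoded in the mitochondrial genome, 6 were lower, such as mt-Nd2 (-0.77), and 2 higher, such as mt-Co1 (0.31). The remaining member of this list of 13, mt-Atp6, had 0 reads in all 6 libraries. Whether reads of mitochondrial genes were assigned to other entries was not tested, so the folds of this list may not measure RNA levels. The values of mt-Co3 (69.7, 0.111 and 95.05 CPM with NEs, 37.2, 182 and 181 CPM with TDEs) scattered too widely within groups to compare; nuclear copies of mitochondrial genes can share their reads.

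Lysosome genes went in both directions. Of 34 members 13 were lower and 7 higher, with 12 higher and 14 lower without NE replicate 3, and the summed level went from between 36224 and 41214 to between 29928 and 30736 CPM. The cathepsin gene Ctsb stood at 4021, 3924 and 4188 CPM in the NE libraries and 1868, 1809 and 1863 CPM in the TDE libraries (log2 fold change -1.13, SE 0.067, adjusted p = 9.6e-06), with exons that overlap Fdft1 on the opposite strand. Ctsd (-0.59), the saposin precursor Psap (-0.31) and the proton pump subunit Atp6v0d2 (-1.65) were lower. Matrix proteases split, with 5 of 23 higher and 8 lower. Macrophage elastase Mmp12 stood at 1567, 1475 and 1636 CPM in the NE libraries and 458, 445 and 436 CPM in the TDE libraries (log2 fold change -1.81, SE 0.071, adjusted p = 1.1e-06), Mmp13 had a log2 fold change of -2.93, and Mmp2 (1.84) and Mmp14 (1.13) were higher. Of 25 integrins and adhesion molecules 13 were lower, including Itgb7 (-1.502), and 6 higher, including Pecam1 (1.47) and F11r (1.26). The Fc receptors for IgG were mostly higher. Fcgr4 stood at 58.2, 60.8 and 61.9 CPM in the NE libraries and 203, 203 and 203 CPM in the TDE libraries (log2 fold change 1.75, SE 0.064, adjusted p = 8.94e-07), with the inhibitory receptor Fcgr2b (0.94) and the shared signaling chain Fcer1g (1.12) higher as well. Over the Fc list 5 of 8 were higher and 2, both receptors for IgE, lower.

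Of 37 cell cycle genes 15 were higher and 9 lower, and 3 and 7 in the fit to all 9 libraries. Their summed level differed little, from between 1081 and 1105 CPM in the NE libraries to between 1117 and 1123 CPM in the TDE libraries. Higher with TDEs were, for example, the spindle checkpoint kinase Bub1 (1.39), Cenpf (0.76) and Mki67 (0.45, adjusted p = 0.0495), which act in mitosis. Lower were the replication clamp Pcna (-1.15) and the helicase subunit Mcm2 (-1.005), which act in DNA replication. Whether genes of the same phase moved together was not tested. Pcna stood at 122, 116 and 159.6 CPM in the NE libraries and 62.2, 58.3 and 59.1 CPM in the TDE libraries. Mcm2 stood at 16.1, 14.9 and 14.04 CPM in the NE libraries and 7.497, 7.61 and 7.35 CPM in the TDE libraries. The groups did not overlap for Pcna or Mcm2. The call of Mki67 was lost in 4 of 6 fits without 1 library (adjusted p up to 0.1402). In the unfolded protein response of the endoplasmic reticulum, 14 of 16 genes were not called with all 6 libraries. Xbp1 was higher (0.55) and the chaperone Hspa5 did not pass (-0.17). This list rests on NE replicate 3: its counts were 4 higher and 5 lower without that library. They were 3 higher and 6 lower with the length trend of each library removed. In the ATF4 list 10 of 22 were higher and 2 lower, with Cebpb higher (1.504) and Psat1 lower (-0.40). The ATF4 counts were 15 higher and 2 lower of 23 without NE replicate 3. Among the C/EBP, IRF and related factors 7 of 22 were higher, including Runx3 (1.604), and 7 lower, including Cebpa (-0.72) and Cebpe, a factor of late granulocyte development (-1.99). Without NE replicate 3, 11 of these factors were higher.

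Markers of granulocytes were mostly lower with TDEs. Of 15 neutrophil markers 12 were lower and 2 higher, and their summed level was 9000.5 to 12639 CPM in the NE and 5884 to 6275 CPM in the TDE libraries. The granule protein Ltf stood at 1583, 1735 and 2063 CPM in the NE libraries and 239.8, 273 and 245 CPM in the TDE libraries (log2 fold change -2.83, SE 0.115, adjusted p = 1.37e-06), and S100a8 at 1219.7, 1399 and 2019 CPM in the NE libraries and 728, 785 and 715 CPM in the TDE libraries (log2 fold change -1.06, SE 0.171, adjusted p = 0.00166). Lcn2, which macrophages also make, was higher (1.53). All 6 eosinophil markers were lower, with sums of 454 to 516 against 102 to 126 CPM, and so were all 7 tested mast cell and basophil markers, with sums of 155 to 197 against 47.9 to 49.9 CPM. Major basic protein Prg2 stood at 349.6, 399.8 and 379.8 CPM in the NE libraries and 81.2, 77.4 and 94.6 CPM in the TDE libraries (log2 fold change -2.16, SE 0.098, adjusted p = 2.46e-06). The mast cell protease Cpa3 had a log2 fold change of -2.87 and the basophil protease Mcpt8 -2.81. The 7 tested members of the list of eosinophil-associated ribonucleases and Ym proteins were all lower too (median -2.49). The part of these cells in the lower levels of Camp, Retnlg, Ear2, Cebpe and the IgE receptors was not tested.

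Among the other lists, 9 of 13 tested conventional DC markers were lower and 0 were higher, or 5 without TDE replicate 3, with sums of 952 to 1060.5 against 648 to 715 CPM. Macrophage markers were lower in 8 and higher in 2 of 14, with the complement gene C1qb at -1.01 and Lyz2, the most abundant RNA of the 6 libraries, not called (-0.16). Monocyte markers were lower in 5 and higher in 2 of 9, where fibronectin Fn1 at 10914, 10652 and 5843 CPM in the NE libraries and 2654, 2469 and 2840.04 CPM in the TDE libraries held much of the sum and NE replicate 3 lay well under the other NE libraries. Plasmacytoid DC markers had 1 higher and 2 lower of 5, and B cell markers 1 higher and 2 lower of 6. T and NK cell markers were scarce, 10.1 to 12.04 CPM in sum with NEs and 1.87 to 2.14 CPM with TDEs, and the 4 that were tested were lower. Fibroblast markers were scarce in both groups, 17.01 to 22.6 CPM in sum over 19 genes with NEs and 25.2 to 40.2 CPM with TDEs. Of these, 3 of 9 tested members were higher with TDEs and 0 lower, with a median log2 fold change of 0.85. The count was 5 of 9 higher without NE replicate 3, and 2 of 10 without TDE replicate 1 or 3. Without TDE replicate 3 the median was -0.15. Col1a1 stood at 1.53, 1.66 and 1.998 CPM in the NE libraries and 1.53, 0.902 and 0.912 CPM in the TDE libraries and did not pass the test (-0.63, adjusted p = 0.122). Epithelial markers summed to 12.7 to 14.7 CPM with NEs and 6.08 to 9.81 CPM with TDEs. Epcam stood at 0.381, 0.277 and 0.717 CPM in the NE libraries and 0.227, 0.0563 and 0.322 CPM in the TDE libraries. Whether the exosomes carry fibroblast or epithelial marker RNA was not tested, so these levels do not measure RNA brought in. Of the endothelial markers Pecam1 alone passed the test, and no red cell marker had enough reads.

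**Figure D5:**
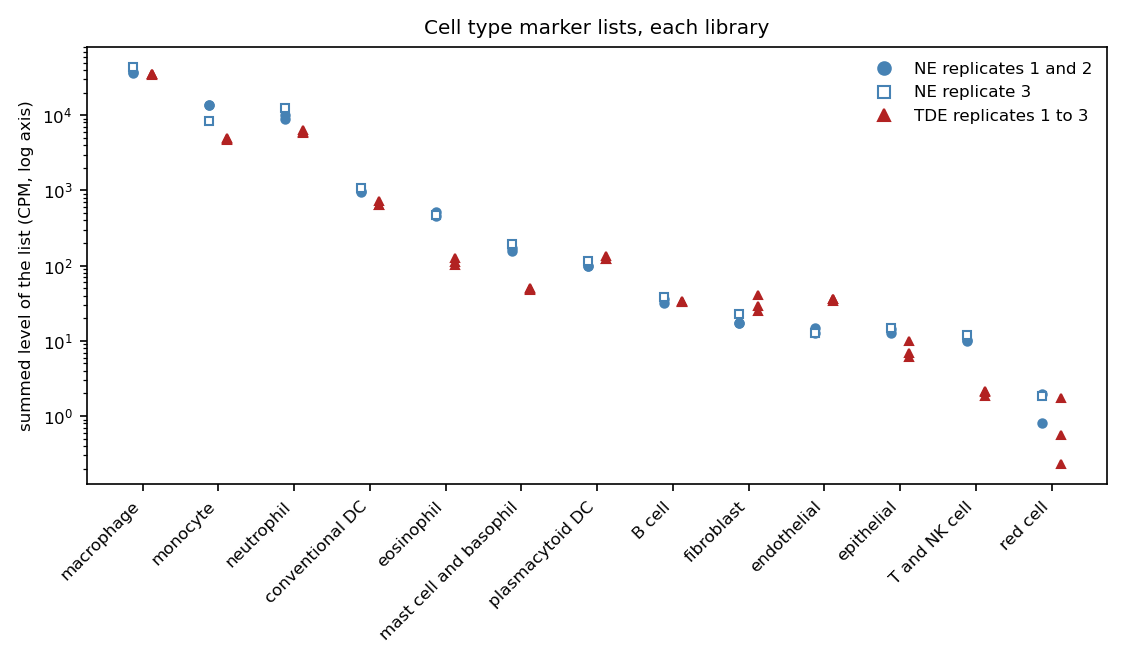
Summed level in CPM (log axis) of 13 cell type marker lists in each of the 6 libraries, with circles for NE replicates 1 and 2, open squares for NE replicate 3 and triangles for TDE. The eosinophil, mast cell and basophil, neutrophil and T and NK cell sums of all TDE libraries lie below those of all NE libraries. So do the conventional DC, macrophage, monocyte and epithelial sums. The plasmacytoid DC, fibroblast and endothelial sums of all TDE libraries lie above those of all NE libraries, and the B cell and red cell sums overlap.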

How the data were processed

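RNA of the treated BMDCs was sequenced by the authors, who aligned reads with TopHat2 (TopHat2 2.1.1, DESeq2 1.24.0 and R 3.3.1 are named in the submitters' processing notes). How reads were counted, on which strand, and with which build and annotation, is not given in the sources used here. The authors deposited estimated counts (expected counts) per gene and library, without normalization, for 57238 entries, 1702 of them transcripts assembled from the reads. Group means and KEGG and GO columns in the same table were not used. The labels give 6 days of culture, and the methods give another length.

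Estimated counts were rounded to whole numbers, and 0 columns of sample values lacked a sample. Of the 6 NE and TDE libraries, genes were kept by edgeR's filterByExpr, which left 14483 with at least 99.8% of each library's reads. Counts were normalized by TMM and tested with the quasi-likelihood F test of edgeR 4.0.16 in R 4.3.3, with p-values adjusted by the Benjamini-Hochberg method over all tested genes. An adjusted p under 0.05 made a call. Dividing the absolute log2 fold change by the root of its F statistic gave the SE, which is therefore approximate. For genes with few reads in the NE libraries, such as Nos2 and Il12a, this SE can be smaller than counting error alone. The script was tested on simulated data. Python 3.11.15, numpy 2.4.6, pandas 2.3.3 and matplotlib 3.10.9 were used for summaries and plots. Alternatives were DESeq2 1.42.0, limma voom (limma 3.58.1), other size factors, other filters, a fit to all 9 libraries, a replicate block, a log2 limit of 1 and each library left out. A fit that removes each library's trend with gene length, as the table gives it, was added after seeing the data.

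For genes at or under a floor of 3 reads, ratios have exact 95% counting intervals, which cover counting error only. No 2 libraries held the same values. Replicate numbers are in the labels, but no source says that they pair libraries, and the deviations of same-numbered NE and TDE libraries from their group means correlated at -0.00025, -0.054 and -0.085, so no pairing was used.

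The gene lists and the members described were chosen with earlier results of these data known. Genes were named by a rule: the 10 highest and 10 lowest log2 fold changes among called genes whose mean reached 5 CPM and whose groups did not overlap, the 2 highest and 2 lowest of each function list under the same conditions, the genes named by the study for this RNA, the 10 called genes and the 5 others with the highest level per length, and markers that check the labelled cell type. Predicted genes, clones and newly assembled transcripts without a proper symbol were left out of the first set. The following were chosen after their values were seen: Arg1, Acod1, Cd38, Il1b, Il6, Il10, Il12b, Tnf, Cxcl1, Cxcl2, Nfkbia, Tnfaip3, Cd80, Cd86, Cd83, Vsir, Pirb, Pdcd1lg2, Vegfa, Hif1a, Bnip3, Ndrg1, Pgk1, Gapdh, Ldha, Pkm, Pfkfb3, Hmgcs1, Sqle, Srebf2, Cd36, Lpl, Fabp4, Lcn2, Ltf, Prg2, Cpa3, Mcpt8, Fn1, C1qb, H2-Aa, Ciita, Mki67, Slc16a3, Isg15, B2m, H2-K1, Hspa5, mt-Co3, Abca1, Fcgr2b, Cxcl10, and the genes given only as not tested, not called or overlapping. Positions and exon overlaps are those of GENCODE vM21 (GRCm38). Overlaps not given beside a result concern Acsl6, Bnip3, Cd274, Cd74, Cebpa, Cebpb, Ciita, Cpt1b, Cpt1c, Ctsd, Cx3cr1, Cxcl10, Fcgr2b, Fn1, Ftl1, Gapdh, Gbp2, Hif1a, Hmgcs1, Idi1, Il1b, Mgll, Mmp12, Ndrg1, Pkm, Scd2, Slc2a1, Slc7a2, Spp1, Tap1, Tnfsf9, mt-Co1, mt-Co3 and mt-Nd2, whose reads cannot be told apart from those of the overlapping gene if counting ignored strand. Some genes of the lists are counted but not reported here by name. Promoter sequences are those of RefSeq on GRCm38.p6, matched by symbol.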

Additional observations from a re-analysis of the deposited data

How the results depend on the processing

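The count of called genes was 5827 with DESeq2, 6073 with limma voom, 6079 with median-ratio size factors, 6085 without a filter, 5565 with a minimum of 10 counts and 7329 with the length trend removed. In each of these, in the fits below and in those that left out 1 library, 0 of the 6068 calls were made in the opposite direction. With library totals in place of TMM, 2528 genes were higher and 3643 lower, against 2986 and 3082, and the median over all genes moved from -0.015 to -0.077. A fit to all 9 libraries called 2097 genes, 1012 higher and 1085 lower, and of the named genes 59 lost their call in it and 0 changed direction. Replicate 1 of the libraries without exosomes stood apart from replicates 2 and 3. Its ribosomal protein reads made up 10.81% against 3.29% and 2.64%, and its mitochondrial reads 1.025% against 2.74% and 2.83%. The cause of the lower count, and the part of this library in it, was not tested. Genes with an absolute log2 fold change of at least 1 numbered 1871, 875 higher and 996 lower. Leaving out 1 library gave 4448 to 8417 calls, the highest without NE replicate 3, with 2205 to 4277 higher and 2228 to 4140 lower.

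With the replicate block, 5160 genes were called, 2574 higher and 2586 lower, and 84.0% of the calls were kept. The numbers do not pair the libraries, and of the genes named by the rule or after it 3 lost their call with the block and 0 changed direction.

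Genes that changed sign were all ones not called with 6 libraries. With the length trend removed Ftl1 was at 0.0078, Gm28661 at 0.062 and Isg15 at 0.018. Over the fits that left out 1 library, the log2 fold change ranged from -0.0038 to 0.12 for Acsl4, -0.28 to 0.37 for Cpt1b, -0.050 to 0.0061 for Flt3, -0.15 to 0.10 for Ftl1, -0.11 to 0.12 for Gm28661 and -0.17 to 0.093 for Isg15. Without NE replicate 3, Ftl1 and Gm28661 were called higher (adjusted p = 0.0247 and 0.0127, edgeR).

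The number of members called moved by over 1.5 times in 5 of the 50 lists without NE replicate 3, in 1 to 3 lists without any other library, in 3 with the length trend removed and in 30 with 9 libraries. In the unfolded protein response it was 2, and 9 without NE replicate 3 or with the length trend removed. The higher cytokine receptors numbered 11, and 7 without TDE replicate 2. The lower MAP kinase and STAT feedback genes numbered 5, and 3 without TDE replicate 1 or 3. In the fit without NE replicate 3, 3 glycolytic genes, 4 NF-kB feedback genes and 5 unfolded protein response genes were lower, and 4 of the last were higher. Without TDE replicate 3, 5 conventional DC markers and 1 nuclear respiratory chain gene were lower, and without TDE replicate 1, 7 ATF4 genes were higher. For genes encoded in the mitochondrial genome the number called was 8, and 5 without TDE replicate 3. Of the genes named in the text, Zbtb46, Relb, Mki67, Psap, Psat1, Sms and mt-Co1 lost their call in at least 1 fit that left out a library, with adjusted p values of edgeR up to 0.1402.

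Depth limits what is said of genes near 3 reads, and 3 libraries a group limit every test. No source says that the libraries of a group came from separate cultures or preparations of exosomes, so the exosome source and such a shared step cannot be told apart. The strand of counting is unknown.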

Other observations

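Cytokine receptors went in both directions, 11 higher and 10 lower of 30. Il1r1, the signaling receptor of interleukin-1, stood at 3.43, 2.66 and 3.13 CPM in the NE libraries and 16.4, 17.52 and 17.9 CPM in the TDE libraries (log2 fold change 2.49, SE 0.124, adjusted p = 3.86e-06). Tnfrsf9, which encodes the T-cell costimulator 4-1BB, was higher (1.26). The interleukin-7 receptor chain Il7r stood at 117, 119 and 111 CPM in the NE libraries and 33.6, 29.9 and 29.3 CPM in the TDE libraries (log2 fold change -1.902, SE 0.080, adjusted p = 1.6e-06), and the stem cell factor receptor Kit, also borne by mast cells, was lower (-1.495).

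The libraries without exosomes (control) give a further level for the genes described. Their values were scaled with all 9 libraries, where Nos2 had 0.19, 1.54 and 1.56 CPM in the control libraries and means of 0.344 CPM in the NE and 362 CPM in the TDE libraries. Egln3 had 18.6, 35.7 and 28.3 CPM, and means of 14.8 CPM in the NE and 309 CPM in the TDE libraries. Cyp51 had 59.8, 68.3 and 66.4 CPM, and means of 83.4 CPM in the NE and 13.4 CPM in the TDE libraries. For these 3 genes the control level lay nearer to the NE than to the TDE mean. Apoe had 7898, 2435 and 2001 CPM, and means of 2459 CPM in the NE and 187 CPM in the TDE libraries. Prg2 had 1215, 446 and 322 CPM, and means of 367 CPM in the NE and 82.1 CPM in the TDE libraries. Control replicate 1 stood apart from the other control libraries for both genes. These are values side by side, and no test was run between the control and exosome libraries here.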
